A study of Mus musculus with 8 samples.

Results

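Islets of 7 mice fell into a high-*Fos* group and a low-*Fos* group that did not follow genotype. *Fos* is an immediate-early gene, and its brightest probe was read in each mouse as the log2 intensity minus the 75th percentile of the array's non-control spots, the scale used for all levels below. The threshold was 3 on this scale. The 3 mice above it, of 7 in all, were WT replicates 3 and 4 and CB1_KO replicate 2, and the low-*Fos* group was the other 4 mice, WT replicates 1 and 2 and CB1_KO replicates 1 and 3. They are written WT1 to WT4 and KO1 to KO3 below. *Fos* was 6.31, 5.34 and 5.84 in WT3, WT4 and KO2, against −0.82, −1.59, 0.75 and −0.71 in WT1, WT2, KO1 and KO3. The mouse just inside the threshold was WT4 and the mouse just outside it was KO1, with a gap of 4.59 between them. The groups were thus chosen by measured *Fos* levels, which are given as a description.

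The mice were males kept on standard diet, their islets were picked by hand after collagenase digestion, and Cy3-labelled RNA was read on 1-colour Agilent arrays. Both genotypes received tamoxifen, and the WT mice were without Cre, so that the Cre transgene and the deletion cannot be told apart. Per the paper, both genotypes carried floxed *Cnr1*, the gene of the cannabinoid-1 receptor. The CB1_KO mice also carried a tamoxifen-inducible Cre under the mouse insulin promoter, so that the receptor is deleted in beta cells after tamoxifen and not in the other cells of the islet. The labels say only wild type or knockout, whereas the husbandry notes among them describe a global CB1 knockout on C57Bl/6J. No age is given in the labels, and none of the labels records a treatment, time of day or handling step that differs between the high-*Fos* and low-*Fos* mice. *Cnr1* was −1.11 to −0.02 in the 4 WT mice and −3.13 to −2.28 in the 3 CB1_KO mice, so the genotypes did not overlap. Islet hormone genes were high in all 7 mice, with *Ins1* between 10.41 and 11.23.

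KO2 was hybridised to 2 arrays, which gave *Fos* levels of 5.82 and 5.86 and were averaged. The 8 arrays shared 1 slide and 1 scan day, with the WT arrays in row 1 and the CB1_KO arrays in row 2. The high-*Fos* arrays were in columns 3 and 4 of the first row and in columns 2 and 4 of the second. The 75th percentile of intensity was 235 to 287 on the high-*Fos* arrays and 249 to 362 on the low-*Fos* arrays, and 33314 to 39031 against 33620 to 39994 of the 55681 probes were well above background. These ranges overlapped. The number of arrays limits the precision of all values below. RNA quality values per sample were not analysed here.

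Immediate-early genes are transcribed within minutes of a stimulus, from promoters that are already primed, and need no new protein for it. The first products are transcription factors of the AP-1, EGR, NR4A and KLF families, and the same stimulus switches on genes that end the response: phosphatases of MAP kinases, proteins that destroy AU-rich mRNAs and inhibitors of cytokine and growth factor signalling. In beta cells such genes are known to respond to glucose, membrane depolarisation, cAMP and cell stress. *Malat1*, the other leading gene of the split, is a long noncoding RNA that stays in the nucleus, in speckles where splicing factors gather.

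Differences are high minus low on the log2 scale, estimated with limma with genotype as a covariate and given ± SE. A level therefore rests on each mouse, and a difference on 2 against 2 WT mice and 1 against 2 CB1_KO mice. Of the 39166 probes compared, 14 passed an adjusted p of 0.05 (0.0357%), and all 14 were higher in the high-*Fos* mice. The *Fos* probe that chose the groups is 1 of the 14 and had to differ. Since the same mice and the same contrast chose the groups, the count describes how many probes follow the split, and nothing is read from it. Without an adjustment, 565 probes were higher and 962 lower at p under 0.05. Without one mouse at a time the number called was 9, 7, 8 and 11 for WT1, WT2, WT3 and WT4, and 9, 0 and 7 for KO1, KO2 and KO3, and without KO2 the only high-*Fos* mice are WT. The fit with the mean level of acinar genes as a further covariate called 8, of which 7 were among the 14. At an unadjusted p under 0.05 it had 5537 probes in place of 1527.

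Groups that do not overlap are a second way to read single genes. Over 16959 genes, each read by its brightest probe, the high-*Fos* mice were all above the low-*Fos* mice for 225 genes (1.33%) and all below them for 425 genes (2.51%). These shares stand beside each count of list members without overlap given below. Where such a count is small, it is not read as a result about its list. The sizes differed between the directions: 85 of the higher genes but 12 of the lower genes differed by at least 1, and 30 and 1 by at least 2. Among these 12, *Akap5*, *Ccdc83*, *Gm7244*, *Magel2* and *Lrrc43*, listed for this reason, were not well above background in any high-*Fos* mouse. *Mir17hg* and *Slc51b* were so in only 1 of them, and these lower differences rest in part on signals near background. The median difference over all genes was −0.08. Scaling the arrays on their medians moved this median to 0.03, so that small negative differences below depend on the scaling. A probe could pass the filter on dim signals, which asked for 3 mice, through the high-*Fos* mice alone; this was so for 55 probes and 18 genes, and the folds of such genes named below are bounds. Of other genes named below, *Atf3*, *Ciart*, *Cxcl1*, *Dusp5*, *Sik1*, *Zbtb16*, *Angptl4*, *Batf*, *Per3*, *Pklr*, *Spry4* and the dimmer *Btg1* probe were well above background in 3 of the 4 low-*Fos* mice *Egr2*, *Rgs1*, *Ccl4*, *Maf* and *Tph1* in 2 and the brighter *Nlrp3* probe in 1, so their differences rest in part on signals near background; *Maf* and *Tph1* were also well above background in only 2 of the 3 high-*Fos* mice.

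**Figure D1:**
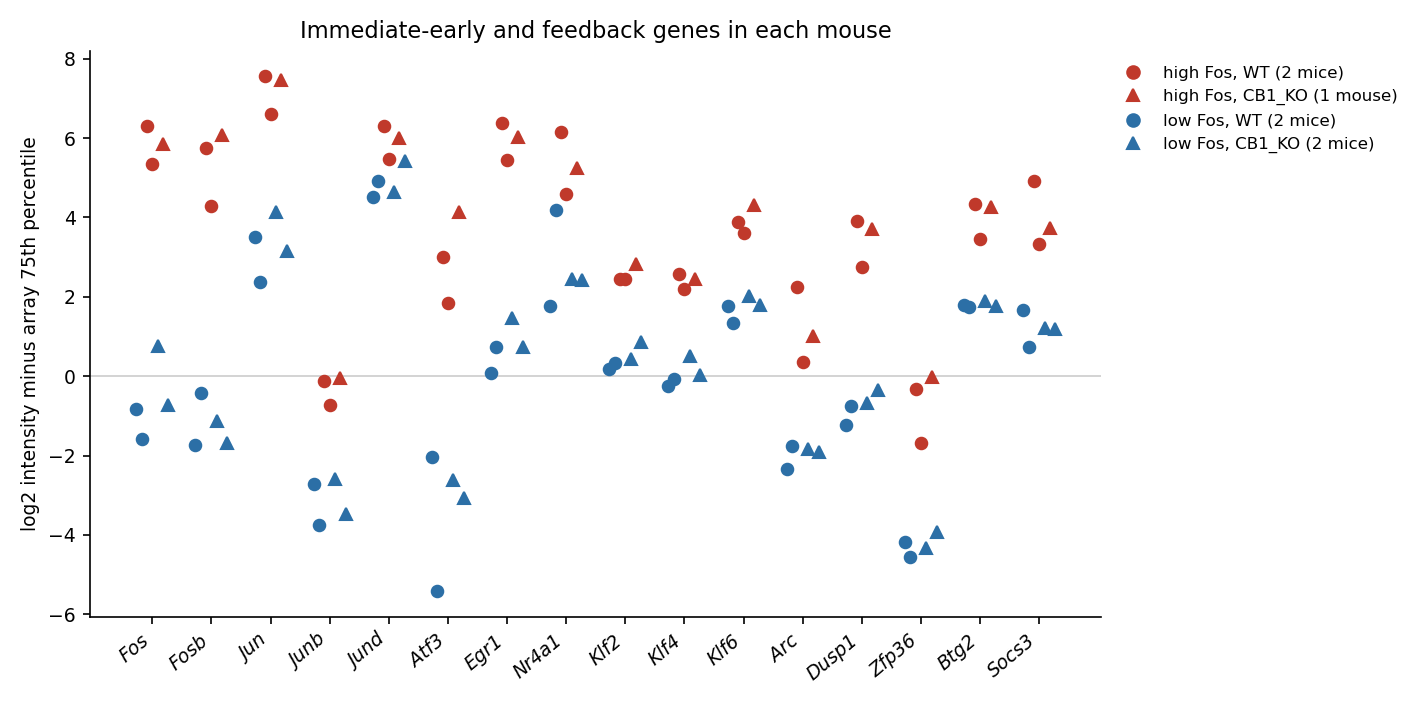
Log2 intensity relative to each array's 75th percentile (vertical axis) for 16 immediate-early and feedback genes (horizontal axis), one symbol per mouse. Red symbols are the 3 high-Fos mice and blue symbols the 4 low-Fos mice, circles WT and triangles CB1_KO; for each gene drawn the red symbols lie above the blue ones.

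AP-1 is a dimer of a Fos-family and a Jun-family or ATF-family protein. Of 11 genes of this family, *Fos* chose the groups and *Fosl1* was not compared. Of the other 9, 5 were higher without overlap and 0 lower, 1 of them called, with a median difference of 1.56. *Fosb*, whose product pairs with Jun proteins as Fos does, was 5.76, 4.29 and 6.08 in WT3, WT4 and KO2, against −1.73, −0.42, −1.12 and −1.67 in WT1, WT2, KO1 and KO3. *Atf3*, a stress-induced partner of Jun, was 3.01, 1.84 and 4.15 in WT3, WT4 and KO2, against −2.04, −5.41, −2.61 and −3.06 in WT1, WT2, KO1 and KO3. *Jun* was 7.55, 6.60 and 7.46 in WT3, WT4 and KO2, against 3.51, 2.37, 4.13 and 3.16 in WT1, WT2, KO1 and KO3. The lowest high-*Fos* mouse for *Jun*, WT4, thus lay above the highest low-*Fos* mouse, KO1, by more than the range among the 3 high-*Fos* mice. The differences were 6.65 ± 0.53, 6.48 ± 0.79 and 4.01 ± 0.41, which is 100.4-fold for *Fosb* and 16.1-fold for *Jun*; no fold is given for *Atf3*, whose lowest mouse, WT2, was not well above background. *Junb* differed by 2.88 ± 0.36 and *Jund*, which is expressed at a high level without a stimulus, by 1.09 ± 0.31. The family did not move as a whole. *Fosl2*, encoding a late Fos protein, was 0.05, 0.26 and 0.28 against −0.28, 1.09, −0.17 and 0.03 in the same order of mice, a difference of −0.01 ± 0.36, and *Batf* (0.19 ± 0.36), *Maf* (0.50 ± 0.51) and *Maff* (1.56 ± 0.45) overlapped.

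Of the EGR, NR4A and KLF factors, 8 of 10 compared were higher without overlap, 4 of them called, with a median of 2.21 (1.33 after normexp, a model-based background correction); *Egr4* and *Nr4a3* were not compared. *Egr1*, a zinc finger factor induced by ERK signalling, was 6.39, 5.44 and 6.02 in WT3, WT4 and KO2, against 0.09, 0.75, 1.47 and 0.73 in WT1, WT2, KO1 and KO3, a difference of 5.26 ± 0.35. *Klf2*, *Klf4* and *Klf6*, related zinc finger factors, differed by 2.19 ± 0.20, 2.40 ± 0.23 and 2.28 ± 0.21. Of these, *Klf4* was 2.56, 2.20 and 2.45 in WT3, WT4 and KO2, against −0.24, −0.08, 0.51 and 0.04 in WT1, WT2, KO1 and KO3. *Nr4a1*, a nuclear receptor without a known ligand that responds to cAMP and calcium, was 6.16, 4.60 and 5.24 in WT3, WT4 and KO2, against 1.76, 4.20, 2.45 and 2.42 in WT1, WT2, KO1 and KO3. WT2 lay just below WT4, so the gap between the groups was small beside the difference of 2.57 ± 0.64. *Egr2* differed by 2.22 ± 0.50, *Nr4a2* by 0.90 ± 0.25 and *Klf10* by 0.57 ± 0.23, all without overlap, whereas *Egr3* (−0.06 ± 0.28) and *Klf9* (0.29 ± 0.21) overlapped. A second *Nr4a2* probe gave 0.52 and overlapped.

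The other immediate-early genes form a mixed list, in which 11 of 19 were higher without overlap and none was called; the median was 0.94. *Arc*, best known as a neuronal activity gene, was 2.24, 0.36 and 1.01 in WT3, WT4 and KO2, against −2.35, −1.77, −1.83 and −1.90 in WT1, WT2, KO1 and KO3, a difference of 3.17 ± 0.46. *Npas4*, which neurons and beta cells induce on depolarisation and calcium entry, was 3.13, 1.00 and 1.69 in WT3, WT4 and KO2, against 0.18, −0.03, 0.14 and 0.45 in WT1, WT2, KO1 and KO3. Both genes were highest in WT3 and lowest, among the high-*Fos* mice, in WT4. *Ier2* (2.43 ± 0.43), *Btg2* (2.25 ± 0.26), *Csrnp1* (1.92 ± 0.51), *Gem* (1.86 ± 0.48), *Rhob* (1.69 ± 0.19), *Ier3* (1.59 ± 0.21), *Id1* (0.94 ± 0.24), *Srf* (0.60 ± 0.23) and *Id3* (0.49 ± 0.23) also separated the groups. Second probes for *Gem* (0.56) and *Srf* (0.15) overlapped. *Btg2*, an antiproliferative factor, varied little among the low-*Fos* mice, at 4.35, 3.45 and 4.25 against 1.79, 1.74, 1.91 and 1.78. *Myc* was 0.27, 0.15 and 0.46 against −0.58, −1.52, 0.17 and −1.15, with KO1 inside the high-*Fos* range. *Ier5* (−0.49 ± 0.22), *Ier5l* (0.64 ± 0.26), *Id2* (0.94 ± 0.30), *Mcl1* (0.25 ± 0.18), *Hes1* (0.20 ± 0.21) and *Nfil3* (−0.10 ± 0.36) overlapped. A second, dimmer probe for *Mcl1* separated the groups, with a difference of 1.11 ± 0.20.

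Part of the genes that end the early response were higher too. Of 20 MAP kinase phosphatases and other feedback inhibitors, 9 were higher without overlap and 0 lower, with a median of 0.25. *Dusp1*, a nuclear phosphatase that switches off p38, JNK and ERK, was 3.91, 2.74 and 3.70 in WT3, WT4 and KO2, against −1.22, −0.76, −0.67 and −0.34 in WT1, WT2, KO1 and KO3, a difference of 4.27 ± 0.32, and was called. *Socs3*, which blocks JAK-STAT signalling from cytokine receptors, was 4.91, 3.33 and 3.72 in WT3, WT4 and KO2, against 1.66, 0.74, 1.22 and 1.19 in WT1, WT2, KO1 and KO3. *Rgs1*, which turns off G proteins downstream of receptors, differed by 3.27 ± 0.33, *Rgs2* by 1.19 ± 0.31, *Dusp2* by 1.44 ± 0.35, *Dusp5* by 0.76 ± 0.28, *Dusp6* by 0.72 ± 0.21, *Spry1* by 1.20 ± 0.30 and *Errfi1* by 1.03 ± 0.34. The *Errfi1* difference rested on KO2 and was 0.44 without it. Close relatives of these genes overlapped: *Dusp4* was −1.21, −2.09 and −3.15 against −2.58, −0.09, −2.85 and −2.93, and *Dusp8*, *Dusp10*, *Dusp14* and *Dusp16* differed by −0.15, −0.24, −0.02 and −0.06. *Spry2*, *Spry4*, *Spred1*, *Spred2*, *Rgs16* and *Socs2* overlapped as well, with differences from −0.18 to 0.34.

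Of the 12 genes for mRNA decay and growth arrest, 5 were higher without overlap, with a median of 0.66. *Zfp36* encodes tristetraprolin, which binds AU-rich elements and destroys the mRNAs of *Fos* and of many cytokines. It was well above background in all 3 high-*Fos* mice and in none of the low-*Fos* mice, so that the difference is a bound: at least 7.64-fold higher, with levels of −0.33, −1.67 and −0.03 against −4.19, −4.55, −4.32 and −3.93. Its relatives differed less, *Zfp36l1* by 1.00 ± 0.38 with overlap and *Zfp36l2* by 0.49 ± 0.18 without. *Sik1*, a kinase that restrains CREB coactivators, differed by 1.36 ± 0.35, *Trib1* by 1.03 ± 0.25 and *Gadd45g* by 0.83 ± 0.24. *Gadd45b* (0.84 ± 0.23), *Gadd45a* (−0.38 ± 0.23), *Plk2* (0.47 ± 0.55), *Plk3* (−0.32 ± 0.33), *Tob1* (0.28 ± 0.23) and *Tob2* (0.15 ± 0.22) overlapped. The probes for *Btg1*, an antiproliferative gene, disagreed: the brightest gave 0.15 ± 0.24 and overlapped, and a dimmer one, named here after its values were seen, was 2.74, 2.80 and 2.23 in WT3, WT4 and KO2, against −2.53, −2.32, −0.90 and −2.67 in WT1, WT2, KO1 and KO3, a difference of 4.72 ± 0.47.

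Of 15 cAMP and CREB targets, several of them in the lists above, 6 were higher without overlap, with a median of 0.35. The median was 0.05 without WT3 and 0.11 without KO2, and −0.10 over the members well above background on all 8 arrays. The ones that separated the groups were *Fosb*, *Nr4a1*, *Nr4a2*, *Rgs2*, *Sik1* and *Pmaip1*. Of these, *Pmaip1* passed the filter on dim signals through the high-*Fos* mice alone. *Crem* differed by −0.56 ± 0.23, *Pde4b* by −0.34 ± 0.36, *Vgf* by −0.16 ± 0.32, *Ppargc1a* by −0.17 ± 0.32 and *Irs2* by 0.35 ± 0.31, all with overlap.

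The promoters of these genes can be set beside the values. RefSeq windows on GRCm38.p6, from 250 bases before to 50 after each start, were found for 62 of the 85 genes that were higher by at least 1 without overlap, as 78 windows, and for 13463 of the 16959 genes compared, as 16861 windows. Counted by gene, with at least 1 window holding the letters, the full cAMP response element TGACGTCA was found in 4 of the 62 genes, *Btg2*, *Dusp1*, *Errfi1* and *Ppp1r15a* (6.45%) against 3.05% of all genes with a window. Its first 6 letters, TGACGT, a search added after the data were seen that also counts each full element, were in 14 (22.6%) against 11.1%. The CArG box, bound by serum response factor, was in 3, *Egr2*, *Filip1l* and *Zfp36* (4.84%) against 1.70%. Of these, *Zfp36* passed the filter on dim signals through the high-*Fos* mice alone. The heat shock letters GAANNTTC were in 6 (9.68%) against 7.46%, the E box CACGTG in 13 (21.0%) against 10.3%, and the AP-1 site TGANTCA in 2 (3.23%) against 7.23%. Both strands were searched. *Fos*, which chose the groups, is 1 of the 85 genes and 1 of the 14 with TGACGT. Some of the 85 also passed the filter through the high-*Fos* mice alone. The shares are given with all of these genes included, so nothing is read from them. No test was made, and a match shows letters and not binding. Of the 12 genes lower by at least 1 without overlap, 9 had a window; 2 held the AP-1 letters and none the others.

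The following 6 windows are shown because they belong to genes with large differences and hold one of these motifs: *Fos*, *Atf3* and *Malat1* with TGACGT alone, *Dusp1* and *Btg2* with a full cAMP response element, and *Hspa1a*, described below, with the heat shock letters. Matches of the 6 motifs on either strand are in capitals, and each sequence runs 5′ to 3′ on the gene's own strand. They lie at chr12:85473640-85473939 (+), chr1:191183284-191183583 (−), chr17:26508423-26508722 (−), chr1:134079106-134079405 (−), chr19:5802623-5802922 (−) and chr17:34972107-34972406 (−) of GRCm38.p6.
Fos: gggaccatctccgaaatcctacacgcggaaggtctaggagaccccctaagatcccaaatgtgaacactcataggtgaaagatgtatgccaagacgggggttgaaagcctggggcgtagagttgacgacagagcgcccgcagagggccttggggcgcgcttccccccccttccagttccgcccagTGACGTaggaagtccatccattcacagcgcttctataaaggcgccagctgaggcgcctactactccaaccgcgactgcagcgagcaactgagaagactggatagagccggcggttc
Atf3: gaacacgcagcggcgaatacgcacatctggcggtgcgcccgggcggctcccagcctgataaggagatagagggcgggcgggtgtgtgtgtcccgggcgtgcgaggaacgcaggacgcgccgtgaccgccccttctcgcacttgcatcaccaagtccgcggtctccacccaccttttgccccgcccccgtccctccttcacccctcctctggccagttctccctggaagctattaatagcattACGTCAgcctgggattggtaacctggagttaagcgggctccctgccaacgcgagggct
Dusp1: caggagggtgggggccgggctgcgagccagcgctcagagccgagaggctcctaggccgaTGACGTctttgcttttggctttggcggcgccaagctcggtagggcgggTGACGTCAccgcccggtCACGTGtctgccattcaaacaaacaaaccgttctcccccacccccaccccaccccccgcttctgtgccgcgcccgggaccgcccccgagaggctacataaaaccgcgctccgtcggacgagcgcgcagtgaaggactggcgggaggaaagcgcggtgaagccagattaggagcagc
Btg2: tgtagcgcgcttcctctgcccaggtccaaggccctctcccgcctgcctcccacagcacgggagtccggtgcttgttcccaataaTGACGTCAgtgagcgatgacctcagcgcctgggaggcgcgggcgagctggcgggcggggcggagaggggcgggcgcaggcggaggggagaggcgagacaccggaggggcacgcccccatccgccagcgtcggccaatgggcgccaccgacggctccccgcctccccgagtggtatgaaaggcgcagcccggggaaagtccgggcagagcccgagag
Malat1: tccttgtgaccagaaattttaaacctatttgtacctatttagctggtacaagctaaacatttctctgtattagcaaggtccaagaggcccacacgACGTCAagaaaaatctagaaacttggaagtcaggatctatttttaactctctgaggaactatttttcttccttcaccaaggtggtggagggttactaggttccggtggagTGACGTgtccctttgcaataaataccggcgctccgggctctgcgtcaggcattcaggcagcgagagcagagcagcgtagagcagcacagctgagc
Hspa1a: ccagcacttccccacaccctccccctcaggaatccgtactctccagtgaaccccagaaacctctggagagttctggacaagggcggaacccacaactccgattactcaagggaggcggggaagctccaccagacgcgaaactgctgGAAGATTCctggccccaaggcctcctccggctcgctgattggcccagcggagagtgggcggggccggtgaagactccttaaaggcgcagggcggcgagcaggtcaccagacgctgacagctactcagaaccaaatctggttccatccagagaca
The *Dusp1* window also holds an E box, and the *Fosb*, *Junb* and *Nr4a1* windows held none of the 6 motifs.

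The probe for *Malat1* read 5.73, 5.44 and 5.36 in WT3, WT4 and KO2, against 1.35, 1.23, 1.52 and 1.31 in WT1, WT2, KO1 and KO3, a difference of 4.16 ± 0.20 or 17.9-fold, with SDs of 0.20 among the high-*Fos* mice and 0.12 among the low-*Fos* mice. No mouse had an intermediate level. The array holds further probes for this RNA: 3 designed against NEAT2, another name of *Malat1*, differed by 4.14 to 4.18, and 1 on the R strand of a noncoding region at chr19:5771425-5848475 (mm9, the build in the array's header) by 4.14. All 5 were called and all 5 separated the groups. In contrast, 10 probes on the F strand of the same region differed by −0.56 to 0.70 and overlapped. *Neat1*, the nuclear RNA of paraspeckles, differed by −0.41 ± 0.30, and 5 further probes for NEAT1 by −0.43 to −0.36, with all of them overlapping. Within the long region, 3 probes on the R strand at chr19:5834117-5835940 (mm9) separated the groups with differences of 2.58 to 3.88, and the brightest of them read 1.66, 1.00 and 1.64 against −1.61, −3.66, −1.29 and −1.98 in the order of mice above. Whether these 3 probes read *Malat1*, *Neat1* or another RNA was not tested, so the overlap of the NEAT1 probes does not cover them.

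**Figure D2:**
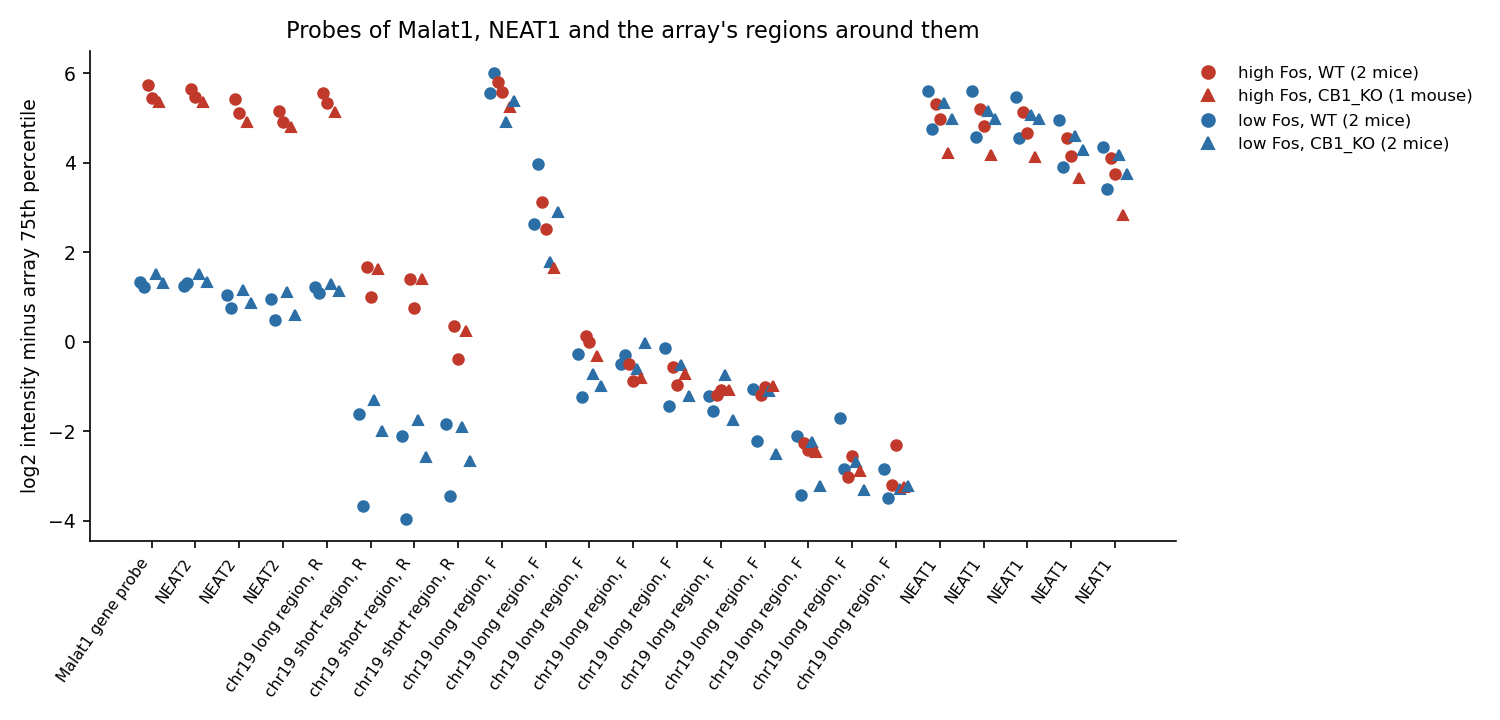
Log2 intensity relative to each array's 75th percentile (vertical axis) in each mouse for every compared probe (horizontal axis) of Malat1, NEAT2, NEAT1 and the array's regions of chromosome 19 around them; R and F are the strands given by the array design. Red symbols (high Fos) and blue symbols (low Fos) are apart for Malat1, NEAT2 and the R-strand probes, and intermixed for the F-strand probes and NEAT1.

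Most other nuclear and host noncoding RNAs overlapped. Of 11 compared, *Malat1* and *Snhg1* (0.30 ± 0.18) were higher and *Mir17hg*, the host of a microRNA cluster, lower (−1.22 ± 0.37) without overlap, with a median of −0.15. *Mir17hg* was well above background in all 4 low-*Fos* mice but in 1 of 3 high-*Fos* mice. *Meg3* differed by −0.15 ± 0.28 and *Kcnq1ot1* by −0.24 ± 0.21. Splicing factors, which *Malat1* meets in speckles, had a median of −0.12 over 17 genes; *Srsf2* (0.49 ± 0.23) and *Clk4* (0.16 ± 0.18) were higher and *Srsf6* (−0.31 ± 0.21) lower without overlap, whereas second probes for these genes overlapped (0.05, 0.17 and −0.20).

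Of 9364 probes for noncoding regions that the array names by coordinates only, 3 were called, a share like that of all probes; 96 (1.03%) were higher and 289 (3.09%) lower without overlap, against 1.15% and 2.81% of all probes, with a median difference of −0.13. The regions described here were chosen after their values were seen and do not stand for the rest. At chr8:129102060-129109035 (mm9, R strand) all 4 probes separated the groups, with differences of 1.82 and 2.86 for the pair seen in all 7 mice, and the other 2 were called. One of these was in the 3 high-*Fos* mice at 0.10 to 0.56 and was not well above background in any low-*Fos* mouse, and it was at least 15.3-fold higher. The other called probe was well above background in 2 low-*Fos* mice. Further examples are 2 of 3 probes at chr10:96098058-96098623 (F strand; one differed by 3.56, the other was well above background in 1 low-*Fos* mouse), both probes at chr10:82074600-82085425 (F strand, 3.94, in a probe well above background in 3 low-*Fos* mice, and 4.32), and, in the other direction, 3 of 4 probes at chr13:48620882-48643532 (R strand, −1.91 at the lowest) and all 3 at chr4:135911688-135915355 (F strand, −2.08 to −1.85), each in mm9. The brightest chromosome 13 probe read −0.39, 0.01 and −0.50 against 1.45, 1.86, 1.21 and 1.80.

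Chaperones split into 2 genes that followed *Fos* and a majority that did not. *Hspa1a*, the inducible HSP70, was 3.52, 2.18 and 1.89 in WT3, WT4 and KO2, against −2.33, −2.46, −1.61 and −2.76 in WT1, WT2, KO1 and KO3, a difference of 4.78 ± 0.47 or 27.4-fold. *Hspb1*, the small heat shock protein HSP27, was 5.02, 5.06 and 4.81 in WT3, WT4 and KO2, against 3.76, 2.50, 3.96 and 2.93 in WT1, WT2, KO1 and KO3. The other 13 of 15 compared overlapped, with *Dnajb1* at 1.05 ± 0.36, *Hsph1* at 0.53 ± 0.32, *Hspa8* at 0.09 ± 0.21 and *Hspd1* at −0.22 ± 0.19, and the median was 0.09. The near-identical *Hspa1b* was not compared, and whether the probe tells the pair apart was not tested.

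Stress genes of the endoplasmic reticulum and of translation differed in both directions. Of 19 genes, *Ppp1r15a*, a phosphatase subunit that restores translation, was higher without overlap (5.29, 4.25 and 5.01 against 2.96, 3.83, 2.71 and 3.16, difference 1.66 ± 0.37), as was *Ddit4*, an inhibitor of mTORC1 (5.28, 5.07 and 4.47 against 3.43, 3.29, 3.28 and 3.35, difference 1.55 ± 0.22). The folding factors *Pdia4* (−0.57 ± 0.24), *Manf* (−0.51 ± 0.24), *Dnajc3* (−0.50 ± 0.21) and *Pdia6* (−0.48 ± 0.22) were lower without overlap. *Hspa5*, which encodes BiP, overlapped at −0.12 ± 0.27, and so did *Atf4* at 0.21 ± 0.18 and *Ddit3* at 0.61 ± 0.35. The median of the list was 0.05, beside −0.08 over all genes.

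Inflammatory and secreted early genes were read next. Of 12 NF-kB targets, cytokines and chemokines compared, 4 were higher without overlap, with a median of 0.68; without WT1 or WT4 the median was 0.36 or 0.40, and after normexp background correction 0.33. *Tnf*, *Il6* and *Cxcl2* were not compared. *Nfkbiz*, a nuclear regulator of NF-kB, was 1.38, 1.15 and 1.47 in WT3, WT4 and KO2, against −0.60, −0.67, −0.20 and −1.01 in WT1, WT2, KO1 and KO3, a difference of 1.97 ± 0.25. *Nfkbia*, an inhibitor of NF-kB and itself one of its targets, differed by 0.74 ± 0.19, *Cxcl1* by 1.05 ± 0.24 and *Il1b* by 0.49 ± 0.21. *Il1b* was dim and barely separated, at −1.66, −1.49 and −2.07 against −2.36, −2.12, −2.45 and −2.13, and *Nlrp3* overlapped (0.27 ± 0.18; a second probe was not well above background in any high-*Fos* mouse). The chemokine genes *Ccl3* and *Ccl4*, named after their values were seen, were higher without overlap; *Ccl3* was at least 8.43-fold higher and *Ccl4* differed by 3.11 ± 0.35. Of 10 secreted factors, *Ccn1* (1.97 ± 0.33) and *Ccn2* (1.30 ± 0.37), matricellular proteins, and *Hbegf* (0.55 ± 0.22) were among those that separated the groups, and the median was 0.69 (1.06 without WT2, 0.38 with normexp). *Angptl4*, a lipase inhibitor, was −0.79, −0.44 and 2.65 against −2.76, −2.48, −0.53 and −0.70, with 2 CB1_KO mice of the low-*Fos* group inside the range of the high-*Fos* mice.

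Clock genes and targets of the glucocorticoid receptor had mostly positive differences, though most members overlapped. Of 15 clock genes, 12 had a positive difference and 3 separated the groups, with a median of 0.66. *Nr1d1*, which encodes the repressor REV-ERBα, was 1.35, 0.68 and 1.55 in WT3, WT4 and KO2, against −1.54, −1.55, −0.10 and −0.17 in WT1, WT2, KO1 and KO3, a difference of 2.22 ± 0.28. *Ciart* (2.16 ± 0.58) and *Bhlhe40* (1.38 ± 0.25), both repressors of the clock, were the others. *Arntl* and *Clock*, the activators, differed by −0.09 ± 0.38 and −0.35 ± 0.19, *Per1* by 0.83 ± 0.40, *Per2* by 0.17 ± 0.23 and *Dbp* by 0.73 ± 0.53. WT1 was the lowest mouse for 9 of the 15 genes: *Dbp* was 2.69 there and 4.35 to 5.04 in the others, and *Per3* −4.91 against −3.31 to −1.58. The median of the clock list was 0.20 without WT1, 0.38 without KO2 and 0.34 with the normexp background.

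All 12 glucocorticoid-response genes had positive differences, with a median of 0.92, and 3 separated the groups: *Zbtb16* (2.67 ± 0.45), *Sgk1* (1.29 ± 0.38) and *Errfi1*, which as given above rested on KO2. KO2 was the highest mouse for 11 of the 12 genes. *Zbtb16*, a transcriptional repressor, was −2.20, −2.24 and 0.82 in WT3, WT4 and KO2, against −4.68, −3.64, −2.75 and −3.16 in WT1, WT2, KO1 and KO3, and *Fkbp5*, a cochaperone of the receptor, 2.69, 2.48 and 3.92 against 2.51, 2.88, 2.30 and 2.61. The median difference was 0.52 within WT and 1.43 within CB1_KO; without KO2 it was 0.52.

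**Figure D3:**
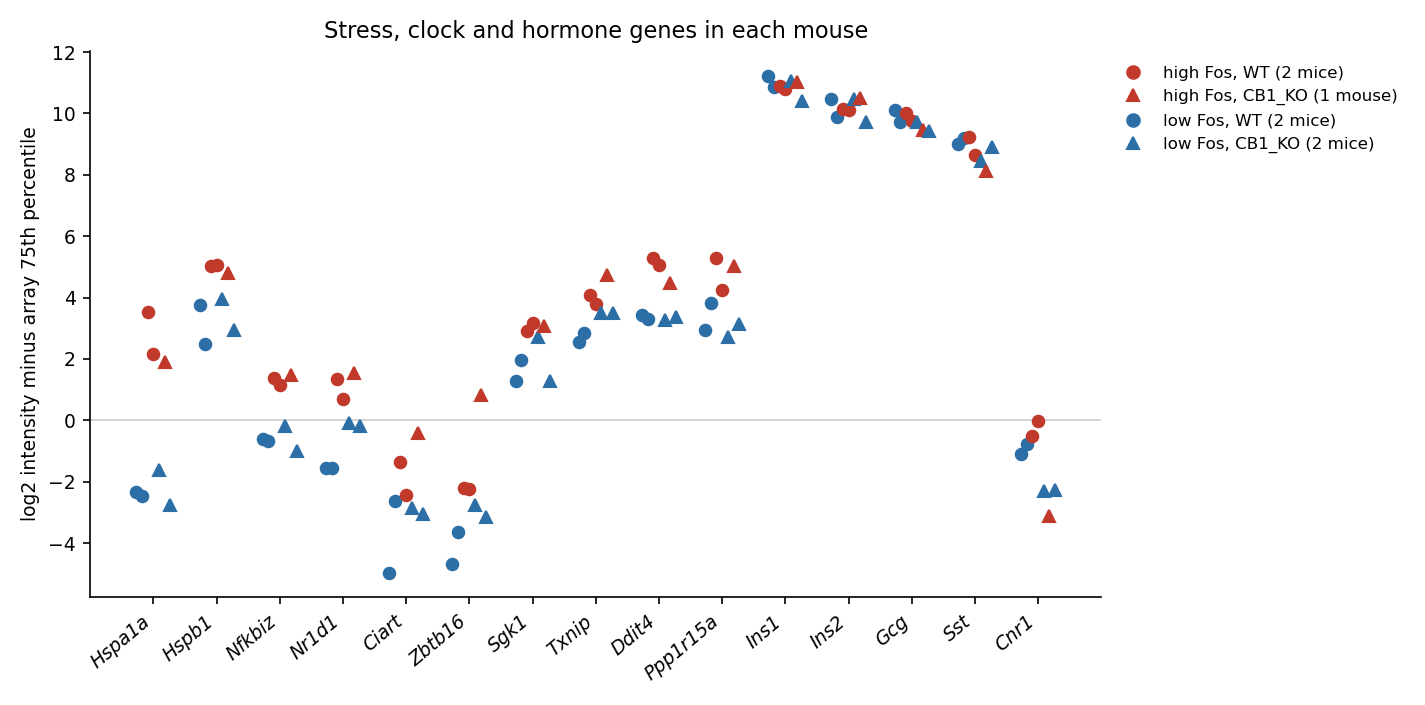
Log2 intensity relative to each array's 75th percentile (vertical axis) for stress, inflammatory, clock, glucocorticoid-response and islet hormone genes and Cnr1 (horizontal axis), one symbol per mouse. The 3 red high-Fos mice lie above the 4 blue low-Fos mice from Hspa1a to Ppp1r15a and overlap with them for the hormone genes and Cnr1.

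*Txnip*, an inhibitor of thioredoxin that glucose induces through ChREBP, was 4.08, 3.81 and 4.72 in WT3, WT4 and KO2, against 2.55, 2.83, 3.50 and 3.50 in WT1, WT2, KO1 and KO3, a difference of 1.24 ± 0.19, and a dimmer probe for it also separated the groups (0.71). Both CB1_KO mice of the low-*Fos* group were above both WT mice of that group. *Arrdc4*, another arrestin-like ChREBP target, differed by 0.89 ± 0.27 on its brightest probe and by −0.23 on a second. The other 10 of 12 ChREBP targets overlapped, with *Pklr* at −0.01 ± 0.30 and *Fasn* at −0.43 ± 0.24, and the median was −0.09. Of 17 hypoxia-response genes 1, *Ddit4*, separated the groups, beside 1.33% of all genes higher and 2.51% lower without overlap. In so small a list, 1 gene is not read as a result about it. The median was 0.13, and 0.03 without KO2, and *Ldha* differed by 0.33 ± 0.46. Of 11 p53 targets, *Pmaip1* and *Trp53inp1* (1.09 ± 0.18) separated the groups, with a median of 0.24. *Pmaip1*, a proapoptotic factor, was not well above background in any low-*Fos* mouse and was at least 1.64-fold higher.

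Most genes of basic cell functions and of islet identity overlapped. The 40 ribosomal protein genes all had positive differences, of 0.04 to 0.88 with a median of 0.24, none of them without overlap. Across the scalings of the arrays 30 to 40 of them were positive. Their median ran from 0.04 after quantile normalisation to 0.35 after median scaling. The 36 respiratory chain genes had a median of −0.07, the 18 proliferation genes −0.11 and the 16 housekeeping genes 0.02. The 21 beta cell genes had a median of −0.22 with no gene apart. *Ins1* was 10.91, 10.78 and 11.03 in WT3, WT4 and KO2, against 11.23, 10.85, 11.05 and 10.41 in WT1, WT2, KO1 and KO3, and *Ins2* (0.13 ± 0.28) and *Iapp* (0.05 ± 0.25) overlapped too. The 8 alpha cell genes had a median of −0.37 (*Gcg* −0.07 ± 0.21) and the 7 delta, PP and epsilon cell genes −0.06 (*Sst* −0.31 ± 0.25, *Ppy* 0.45 ± 0.64).

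In these bulk samples, fewer cells of a type and less RNA per cell cannot be told apart. The level of the other cell types was read from marker lists, as the sum of linear levels in multiples of the array's 75th percentile. Acinar markers summed to 27208 to 35069 in the high-*Fos* mice and 16838 to 35818 in the low-*Fos* mice; 24 of 25 had a positive difference (median 0.40) and all overlapped, with WT2 and KO3 the lowest mice and WT1 and KO1 as high as the high-*Fos* mice. The acinar median was 0.13 without WT2, 0.20 without KO3 and 0.69 without WT1, and 0.16 with 18 of 25 positive after quantile normalisation. Stellate cell and fibroblast markers summed to 53.8 to 166 against 47.5 to 74.7, with a median of 1.08 over 18 genes. The highest sum was that of WT4, in which *Col1a1* was 2.43 against −1.26 in WT3, and without WT4 the median was 0.38. *Acta2* (1.38 ± 0.47) and *Thy1* (1.54 ± 0.59) separated the groups, but WT4 was the highest mouse for both and without it the differences were 0.85 and 0.82.

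Endothelial markers summed to 56.5 to 96.1 against 68.6 to 79.1, and of 17 only *Vwf* was apart (1.97 ± 0.51; *Pecam1* 0.33 ± 0.21). Macrophage markers summed to 116 to 149.6 against 97.6 to 131 and duct markers to 107 to 146 against 89.9 to 119, with medians of 0.15 over 19 genes and 0.25 over 12, the latter 0.02 without KO2. T and B cell markers summed to 10.5 to 12.1 against 10.8 to 13.7 (7 genes, median −0.01), and *Cd3d*, *Cd79a* and *Ms4a1*, which are among the genes that define these cells, did not pass the filter. Schwann cell markers (6 genes) summed to 18.3 to 23.2 against 22.7 to 31.8 and adipocyte markers (3 genes) to 3.64 to 9.72 against 2.24 to 9.10, with medians of 0.57 and 0.12. For every one of these lists the 2 ranges overlapped, and apart from the fit with the acinar covariate their part in the differences above was not tested.

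**Figure D4:**
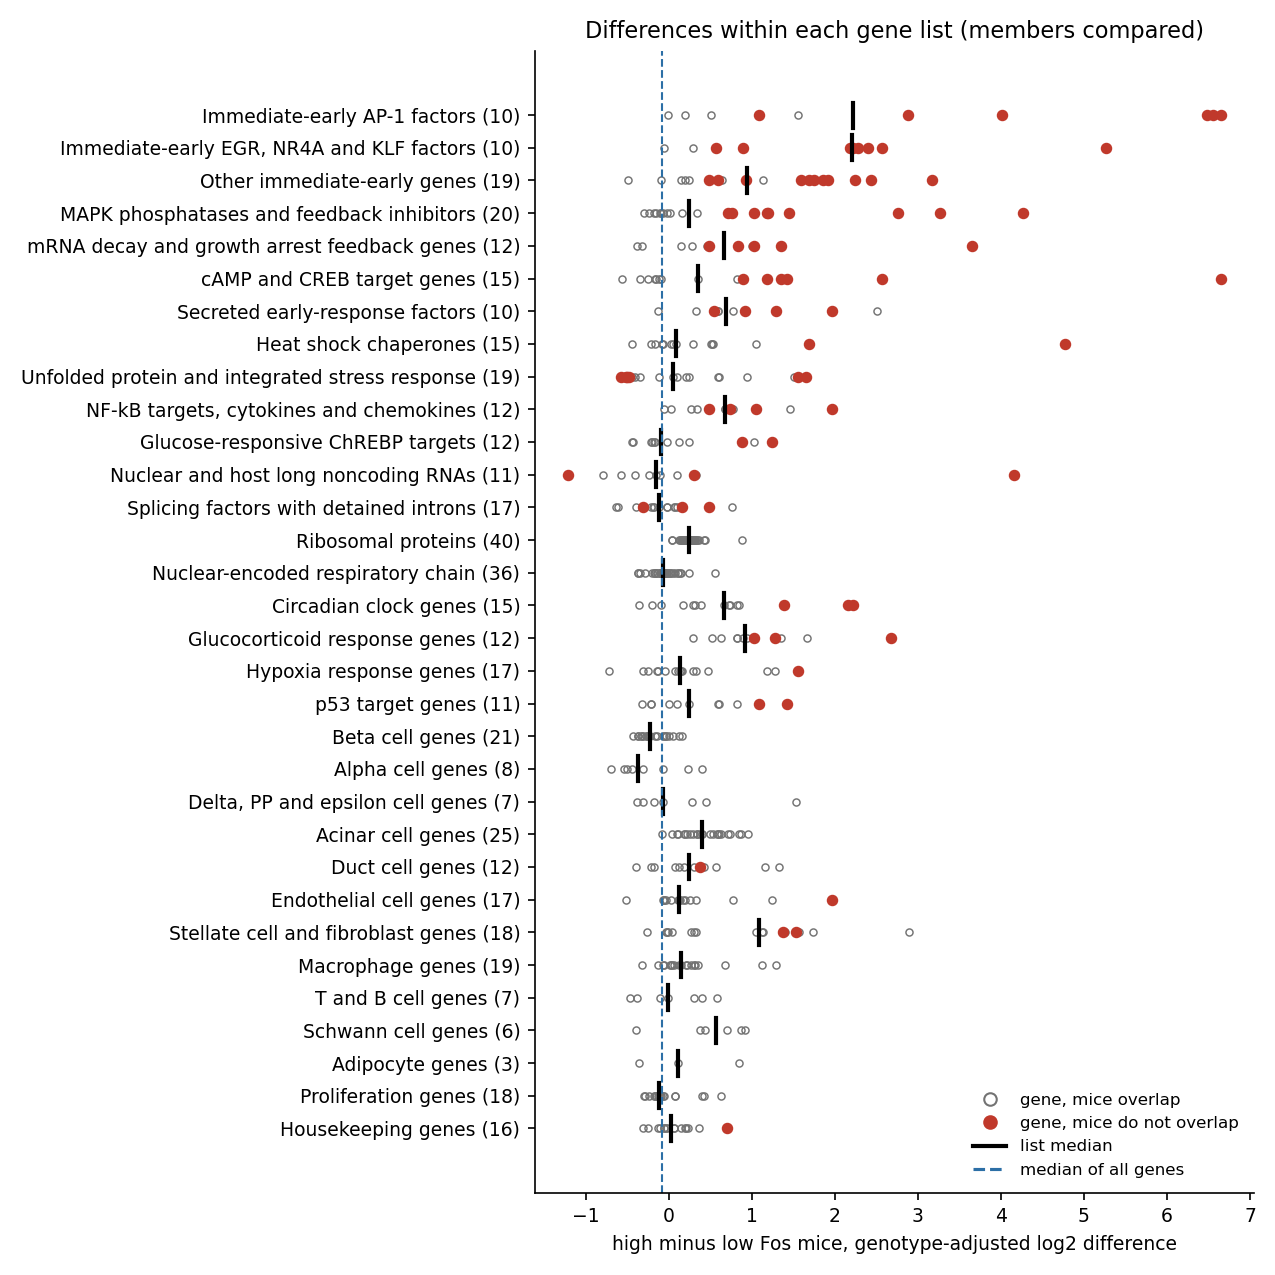
Genotype-adjusted log2 difference between high-Fos and low-Fos mice (horizontal axis) for each compared member of the 32 gene lists (rows, number of members in brackets). Filled red circles are genes whose mice do not overlap, open circles genes whose mice overlap, black bars list medians, Fos included, and the dashed line the median of all genes, −0.08; the red circles beyond 2 are immediate-early, feedback, chaperone, clock and glucocorticoid-response genes and Malat1.

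Few genes were lower by a large amount. *Akap5*, *Tcf24* and *Mir17hg* had the lowest differences without overlap, and *Akap5*, named after its values were seen, was not well above background in any high-*Fos* mouse. *Spc25*, which encodes a kinetochore protein, was 6.51, 6.51 and 6.08 in WT3, WT4 and KO2, against 7.54, 8.01, 6.57 and 7.42 in WT1, WT2, KO1 and KO3, a difference of −1.13 ± 0.28. *Rnu3b1*, a small nucleolar RNA gene, was 3.70, 3.26 and 3.26 in WT3, WT4 and KO2, against 4.33, 4.30, 4.26 and 4.47 in WT1, WT2, KO1 and KO3. Both were bright in all 7 mice; whether the *Spc25* probe also reads a neighbouring gene was not tested. The others named by the same rule were *Pigc* (−1.04 ± 0.21), *Tcf24* (−1.24 ± 0.29), *5830444B04Rik* (−0.94 ± 0.27), *Pgc* (−0.93 ± 0.26), *Npvf* (−0.92 ± 0.27), *Gm4532* (−0.90 ± 0.21), *Rnpc3* (−0.78 ± 0.18) and *Dancr* (−0.75 ± 0.21). *Npvf* was well above background in 2 low-*Fos* mice and 1 high-*Fos* mouse, and *Pgc* in all 4 and in 2. A second, dimmer probe for *Gm4532* was lower without overlap but was not well above background in any high-*Fos* mouse, and a second probe for *Tcf24* (−1.15) and the dimmest for *Rnpc3* (−0.31) overlapped. The prolactin receptor gene *Prlr*, a beta cell gene named after its values were seen, was 4.61, 4.49 and 4.32 against 5.05, 5.29, 5.30 and 6.45. *H3c1*, a replication-dependent histone gene that is in none of the lists, was not well above background in any low-*Fos* mouse and was at least 2.25-fold higher. *Fam71a*, named after its values were seen, was at least 15.8-fold higher in the same way.

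The 2 genotypes share no mice, so that genes chosen in one can be read in the other. In WT, 698 probes were higher by at least 1 in WT3 and WT4 than in WT1 and WT2 without overlap. Of these, 348 (49.9%) were also higher in KO2 than in both KO1 and KO3, against 21.3% of all 39166 probes, and 90 were lower. On the lower side the share was below that of all probes: of 842 probes lower in WT3 and WT4, 218 (25.9%) were lower in KO2 than in both others, against 27.6% of all probes. Read the other way, 302 of 1182 probes higher in KO2 (25.5%) were higher in both WT3 and WT4 than in WT1 and WT2, against 7.98% of all probes, and 277 of 1002 lower ones (27.6%) were lower, against 23.5%. The probes include that of *Fos* and the 55 that were well above background in the high-*Fos* mice alone, which are kept by a filter that favours the split; without these 56, a choice made after the data were seen, the shares of higher probes were 322 of 667 (48.3%) against 21.2% and 279 of 1150 (24.3%) against 7.90%. KO2 is 1 mouse, its arrays were averaged, and probes for one gene are not independent, so the shares are given with no test.

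The higher side kept its lead under each of 9 other ways of processing, in which 45.5% to 64.2% of the probes chosen higher in WT were higher in KO2 against 21.3% to 28.2% of all probes. The lower side did not keep one order: the share was 55.6% against 21.2% with the normexp background, where 27 probes were chosen, and 17.5% against 23.3% with no filter. Without one mouse the share chosen higher in WT and higher in KO2 was 31.1% to 79.2%, in each case above that of all probes. The share of all probes moved too. The 31.1%, without WT1, stands against 21.3%, and the 79.2%, without KO1, against 56.0%, since KO2 then had to exceed only 1 mouse. Counted over genes by their brightest probe, 193 of 370 (52.2%) were higher in KO2 against 20.4% of all genes, and 40 of 205 (19.5%) were lower against 31.6%. *Fosb* differed by 6.10 in WT and 7.48 in CB1_KO, *Atf3* by 6.15 and 6.98, *Egr1* by 5.49 and 4.92, *Malat1* by 4.30 and 3.95 and *Hspa1a* by 5.24 and 4.07. Across all compared probes the differences of the 2 genotypes had a Pearson r of 0.25, and across genes 0.30, as a description.

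**Figure D5:**
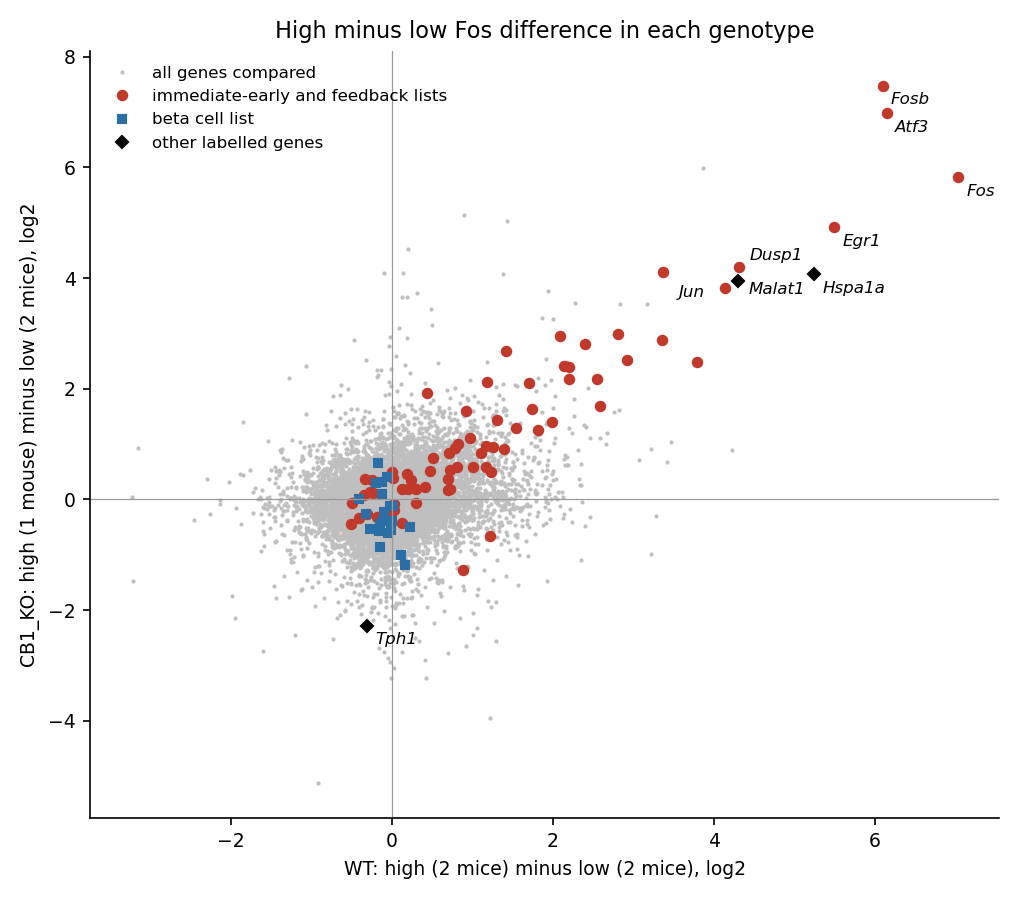
Log2 difference between high-Fos and low-Fos mice within CB1_KO (vertical axis, 1 against 2 mice) against that within WT (horizontal axis, 2 against 2 mice), one point per gene. Members of the 5 immediate-early and feedback lists are red, beta cell genes blue; the 4 genes with the largest differences in WT, Fos, Atf3, Fosb and Egr1, lie between 4.92 and 7.48 in CB1_KO.

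Whether the difference depended on genotype was tested with an interaction term in limma, which called 0 of 39166 probes after adjustment (688 at an unadjusted p under 0.05). Only 1 CB1_KO mouse was in the high-*Fos* group, and that a probe was not called does not show that the genotypes were alike. The number of calls between genotypes depended on the model. With the split as a covariate, 18 probes were called between CB1_KO and WT (17 higher in CB1_KO), without it 42 (41 higher), and 16 were shared. At an unadjusted p under 0.05 the order was the other way, 1836 with the covariate and 1404 without, and the fits differ in their residual degrees of freedom. With the covariate, 0 were left without any one of the WT mice or KO2, 1 without KO3 and 13 without KO1. None of the 14 probes that followed the split was among the 18. *Tph1*, which encodes the enzyme that starts serotonin synthesis, was −5.61 to −3.38 in WT and 4.15, 2.49 and 5.39 in KO1, KO2 and KO3, so the one high-*Fos* CB1_KO mouse had the lowest level of the 3. For *Tph1* the high minus low difference was −1.10 ± 0.72 and the groups overlapped. *Cnr1* differed by 0.06 ± 0.36 between high and low *Fos*, 0.67 in WT and −0.84 in CB1_KO.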

How the data were processed

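Total RNA from the islets of 7 mice was read on 8 Agilent 1-colour arrays. The authors deposited, per the labels and file headers, Feature Extraction 11.5.1.1 files with processed signal intensity per spot, and a table of Z scores. The deposited score matched the Z score of log10 intensity to within 0.00503 and served as an alternative. The deposited intensity values had their background subtracted by the scanner software. From them, log2 intensity minus the array's 75th percentile over 59305 non-control spots was computed, spots of one probe and the 2 arrays of KO2 were averaged, and flagged spots were left out. Of 55681 probes, 39166 well above background in at least 3 mice were compared, and 22135 of these were given a symbol through RefSeq accessions, for 16959 genes, each read by its brightest probe. No gene name was taken from elsewhere.

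The groups were those above and below 3 for *Fos*. Differences were fitted with limma 3.58.1 in R 4.3.3, genotype as a covariate, with Benjamini-Hochberg adjustment over all probes; the interaction and the genotype comparison were fitted on the same table. The smallest signal well above background served as the bound for "at least" folds. Tables and figures were made with Python 3.11.15, pandas 2.3.3, numpy 2.4.6 and matplotlib 3.10.9. The fits were tested on simulated data. The 8 samples are 7 separate mice, KO2 having 2 arrays. The members, the 32 lists and the tests were chosen with earlier results of these data known. Named genes were *Fos*, *Egr1*, *Dusp1* and *Malat1*, all compared members of the immediate-early and feedback lists, up to 4 members per other list with the largest difference and no overlap, the 10 strongest in each direction with no overlap in either genotype, by moderated t where fewer than 10 were called, and a set of islet genes; overlapping members of other lists are examples picked with the values in view. A few list members are not reported here.

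Alternative settings covered other backgrounds, scalings, filters, the repeat arrays singly, other models, other probes and leaving out each mouse.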

Additional observations from a re-analysis of the deposited data

Results flagged for a closer look

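Among 126 groups of 4 low-*Fos* values tested, 1 for each gene considered, 7 held a mouse far from the other 3, and chance alone would flag 6.3. *Btg1* was 5.04 in WT2 and 4.37 to 4.41 in the other low-*Fos* mice. *Dusp4* was −0.087 in WT2 and −2.93 to −2.58 in the others. *Gadd45g* was 5.77 in KO3 and 5.32 to 5.35 in the others. *Id2* was 1.13 in KO1 and 0.023 to 0.13 in the others. *Ier5* was −1.06 in KO1 and −0.54 to −0.44 in the others. *Srsf6* was 3.89 in KO1 and 3.45 to 3.51 in the others. *Tob1* was 1.95 in KO3 and 2.42 to 2.50 in the others. All are log2 levels relative to the array's 75th percentile.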

How the results depend on the processing

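The 14 probes called between high-*Fos* and low-*Fos* mice became 25 with the normexp background, 22 with quantile normalisation, 45 with median scaling, 31 from the deposited scores, 50 with an intensity trend in the variance, 33 without genotype, 24 with the *Fos* level in place of the split and 8 with the acinar covariate; without one mouse they were 0 to 11. The methods' t test called 6 after Benjamini-Hochberg adjustment and 1272 unadjusted. Between genotypes, the 18 became 30 with normexp, 6 with no filter, 46 with the trend and 42 without the split, and 0 to 13 without one mouse; the methods' t test called 0 after adjustment and 1412 unadjusted. Correlations of deviations between same-numbered mice were 0.42, −0.27 and −0.06. The split was not removed from them, so they do not settle whether replicate numbers pair the mice. With the numbers as a replicate block, which leaves out WT4, limma called 0 probes in place of the 14 and 0 in place of the 18. At an unadjusted p under 0.05 there were instead 6342 in place of 1527 and 4635 in place of 1836. The 566 of 1540 WT-chosen probes (36.8%) that moved the same way in CB1_KO were 166 of 297 (55.9%) with normexp and 890 of 3577 (24.9%) with no filter. With probes above background on all 8 arrays they were 220 of 478 (46.0%). For differences of at least 0.5 and 2 they were 1799 of 5519 (32.6%) and 89 of 141 (63.1%), and without one mouse 590 to 1255. The 579 of 2184 CB1_KO-chosen probes (26.5%) were 203 of 687, 301 of 1101, 1988 of 8059 and 97 of 313 under the same settings except no filter. Without one mouse they were 729 to 1249. The interaction called 0 probes in all 16 alternatives run. Of 2006 values of single genes, 75 had the opposite sign, in 23 genes; 1 of them was in a gene whose groups did not overlap, *Arrdc4* on its other probe (−0.23). The other 22 genes overlapped in the first place, among them *Dusp4* (−0.91 to 0.34 without one mouse), *Fosl2* (−0.29 to 0.39) and *Batf* (−0.07 to 0.45). Of the list medians, 467 stayed within the spread between mice and 45 moved beyond it. Without one mouse, the medians of the adipocyte, delta, endothelial, ChREBP, heat shock, housekeeping, proliferation, T and B cell and unfolded protein lists, at most 0.13 in size, changed sign. The normexp background lowered the medians of Immediate-early AP-1 factors with *Fos* from 2.22 to 1.45, MAPK phosphatases and feedback inhibitors to 0.12, Schwann cell genes to 0.21, Stellate cell and fibroblast genes to 0.71 and Macrophage genes to 0.09. Without one mouse, other medians shrank to 0.33 (Schwann cell genes, without WT4), 0.14 (MAPK phosphatases and feedback inhibitors, without WT4; 0.43 without KO2), 0.02 (Macrophage genes, without WT4; 0.31 without KO2), 0.13 (p53 target genes, without KO2), −0.20 (Alpha cell genes, without KO2), −0.07 (Beta cell genes, without KO3), 0.10 (Ribosomal proteins, without KO3; 0.37 without WT1), 0.03 (Hypoxia response genes, without KO2; 0.21 without KO1), −0.02 (Nuclear-encoded respiratory chain, without KO1), −0.07 (Nuclear and host long noncoding RNAs, without WT4; −0.28 without KO1) and about 0 (Splicing factors with detained introns, without WT2 or WT4; −0.27 without WT1). Of named genes whose groups did not overlap, *Errfi1* and *Srsf6* (−0.14) shrank by over 1.5 times without KO2, *Acta2*, *Thy1* and *Id3* (0.30) without WT4, *Npas4* (1.16) without WT3 and *Manf* (−0.30) without WT1. The cause was not tested. A slide or scan block (1 slide, 1 scan), the interaction under the block or without KO2, and the reading of one genotype in the other without KO2 could not be run. normexp used the median spot intensity. Signal near background limits the genes given as bounds.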
